A study of Mus musculus with 4 samples.

Results

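Neurogliaform cells (NGFCs) are small GABA-releasing interneurons with a dense local axon, and they are known for slow inhibition through GABA that spreads beyond the synapse. Many cortical neurogliaform cells arise outside the medial ganglionic eminence (MGE), the embryonic zone that expresses the transcription factor gene Nkx2-1, whereas in the hippocampus an MGE-derived population is well known. NMDA receptors, the glutamate-gated channels that need the subunit encoded by Grin1, help interneurons mature.

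The study asked how loss of Grin1 alters MGE-derived interneurons of the frontal cortex and the hippocampus. In all mice Nkx2.1-Cre, which acts in cells of the Nkx2-1 lineage and so also in oligodendrocyte-lineage cells of that origin, switched on the Ai14 reporter TdTomato. WT mice carried unaltered Grin1 (wt/wt), and null mice, labelled GRIN1-KO, carried floxed Grin1 (fl/fl), so that deletion was limited to Cre-expressing cells and their progeny. Littermates of both sexes at postnatal days 18 to 20 were used and cells of several animals were pooled. TdTomato-positive cells were sorted by flow cytometry with doublet discrimination, after dissociation in the presence of TTX, APV and Act-D, which block action potentials, NMDA receptors and transcription. Single-cell 3′ RNA counts (unique molecular identifiers, UMIs) were made with the 10x system, version 2 chemistry for replicate 1 and version 3 for replicates 2 and 3.

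The data comprised 26987 cell barcodes in 10 libraries: 3 WT and 2 null libraries from each region. Total UMIs in cortical WT replicates 1, 2 and 3 were 9306756, 14212183 and 28057207. The cortical null libraries held 1488601 and 25688337 UMIs. In the hippocampus the WT libraries held 10555408, 8782181 and 20639002 UMIs and the null libraries 3856745 and 47338167. Null replicate 1 was the smallest library of each region, and in the cortex it had 181 barcodes.

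Cortical MGE neurogliaform cells were selected on measured values: 200 to 6000 genes, under 30% mitochondrial UMIs, at least 2 UMIs of Gad1 plus Gad2 (the enzymes that make GABA), no Mog (myelin), at least 3 UMIs of Hapln1, at least 1 of Lamp5, no Crabp1, and Sst below 3000 counts per 1e+06 of the cell's UMIs (CPM). Hapln1 (ENSMUSG00000021613, GRCm38 chromosome 13, 89539796 to 89611652) encodes a link protein that fixes proteoglycans to hyaluronan. Lamp5 (ENSMUSG00000027270, chromosome 2, 136052239 to 136069917) encodes a lysosome-associated membrane protein. The rule kept 248 of 5849 cortical Gad cells, where a Gad cell is a filtered cell with at least 2 Gad UMIs and no Mog. WT replicates 1, 2 and 3 gave 33, 63 and 79 cells, and null replicates 1 and 2 gave 3 and 70. Their summed UMIs were 217037, 267629, 552510, 36517 and 879191 in that order, and the median per cell was 6411, 3981, 6602, 11783 and 12260.5. Null NGFCs were thus deeper than WT NGFCs in both null libraries.

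Most selected cells lay well inside the limits, though less so in WT replicate 2. A stricter rule (at least 5 Hapln1 and 2 Lamp5 UMIs) kept 33 of its 63 cells. The same limits kept 27 of 33 and 68 of 79 cells in WT replicates 1 and 3. In null replicates 1 and 2 they kept 3 of 3 and 70 of 70. The median NGFC held 15 Hapln1 and 4 Lamp5 UMIs, while 7 cells had exactly 3 Hapln1 UMIs and 36 had a single Lamp5 UMI. The 22 cells that missed the rule with 1 or 2 Hapln1 UMIs were shallow (median 2343 UMIs) and their sum held Npy at 4234 CPM and Id2 at 987 CPM, beside 4792 and 1138 CPM in the NGFCs. The 110 cells that missed it only for want of Lamp5 had a different make-up, with Pvalb at 1935 CPM, Npy at 1130 CPM and Id2 at 256 CPM. The Sst limit removed 4 cells, whose summed Sst was 5323 CPM, and the Crabp1 limit removed 0. Among the 248 cells, 175 had no Sst UMI.

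NGFCs made up 4.30% (95% Wilson interval 3.08 to 5.98), 3.65% (2.86 to 4.64) and 3.53% (2.85 to 4.38) of Gad cells in cortical WT replicates 1, 2 and 3. Null replicate 1 held 2.36% (0.807 to 6.72; 3 of 127 cells) and null replicate 2 held 7.05% (5.62 to 8.81; 70 of 993 cells). The null libraries fell on either side of the WT range. The means were 4.71% ± 3.31 (SD, n = 2) in null and 3.83% ± 0.414 (n = 3) in WT, a difference of 0.877 points (two-sided exact permutation test, p = 0.8; the smallest p for 3 against 2 is 0.1). Without null replicate 2 the difference was -1.47 points, and without null replicate 1 it was 3.22 points, so each null library decides its sign or its size. Filtered cells with at least 2000 UMIs were also thinned to 2000 before the rule was applied, and shallower cells were left out. The difference was then 0.0395 points. The shares were 2.68%, 2.33% and 2.11% in the WT libraries, 0 of 95 cells in null replicate 1 (Wilson interval up to 3.89%) and 4.82% in null replicate 2. Null replicate 2 thus stayed above every WT library after thinning. The cell filter, applied before thinning, kept 2578 of 2898 barcodes in null replicate 2. It kept 1277 of 1277, 3830 of 3851 and 3930 of 3960 in WT replicates 1, 2 and 3. The part of this unequal loss in the shares was not tested.

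The same rule applied to the hippocampus kept 1067 cells, with 90, 90 and 279 in the WT libraries and 42 and 566 in the null libraries. These were 20.0% (16.5 to 23.9), 7.68% (6.29 to 9.35) and 37.8% (34.3 to 41.3) of WT hippocampal Gad cells, and 25.5% (19.4 to 32.6) and 36.2% (33.9 to 38.6) of null ones. Every hippocampal WT library was above every cortical one, although the hippocampal libraries differed widely among themselves. The mean was 21.8% ± 15.1 (n = 3) against 3.83% ± 0.414 (n = 3), a difference of 18.0 points (exact permutation test, p = 0.1, the smallest that 3 against 3 allows). Without hippocampal WT replicate 3 the difference was 9.99 points. When cells with at least 2000 UMIs were thinned to that depth and shallower ones left out, the difference was 11.8 points. Gad cells of hippocampal WT replicate 2 then numbered 580 instead of 1172. Under a stricter rule (at least 5 Hapln1 and 2 Lamp5 UMIs) the order of the libraries was not kept. Hippocampal WT replicate 2 then held 1.28%, below the lowest cortical WT library at 1.91%.

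**Figure D1:**
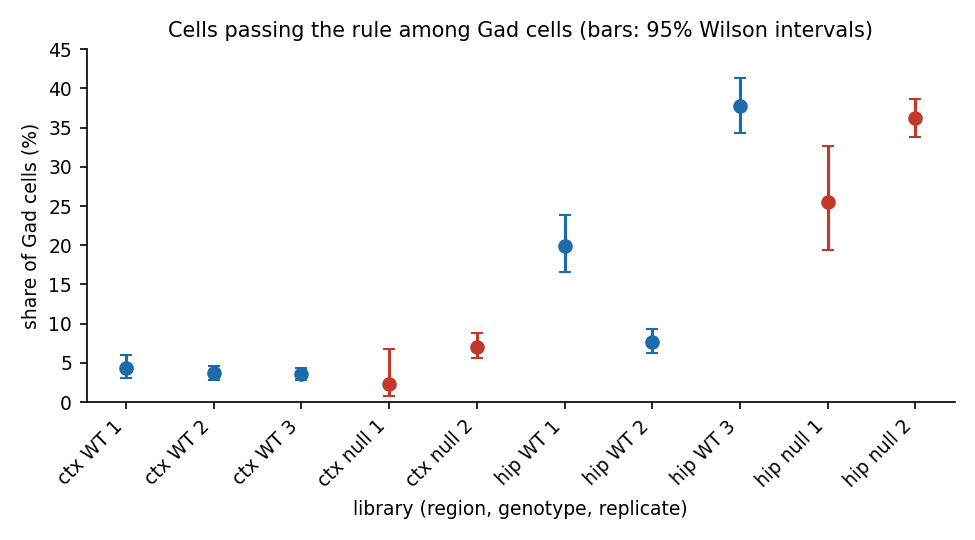
Share of Gad cells that passed the neurogliaform rule (vertical axis, %) in each of 10 libraries (horizontal axis), WT in blue and null in red. Points are shares and bars 95% Wilson intervals. The 3 cortical WT libraries lie between 3.53% and 4.30%, and the hippocampal WT libraries between 7.68% and 37.8%.

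Some libraries stood apart in ways that the groups do not explain. Immediate early genes were high in replicate 2: summed over the 14 activity-regulated genes listed, NGFCs held 101, 1244 and 156 CPM in cortical WT replicates 1, 2 and 3 and 379 CPM in null replicate 2. Fos, an early response transcription factor of that list, stood at 4.61, 355 and 27.1 CPM in the WT libraries and 68.2 CPM in null replicate 2. Hippocampal replicate 2 libraries were also high in Fos, at 337 CPM in WT and 416 CPM in null.

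Sex-linked transcripts, chosen for mention after their values were seen, also separated libraries. Xist, the RNA of the inactive X chromosome, had 139 UMIs in cortical WT replicate 1 (27 of 33 NGFCs), 0 in replicate 2 and 16 in replicate 3 (3 of 79 NGFCs). It had 0 UMIs in every null library, whereas the Y-linked Ddx3y gave 4, 26 and 32 UMIs in the cortical WT libraries and 4 and 54 in the null ones. In the hippocampus 37 of 90, 0 of 90 and 112 of 279 NGFCs of WT replicates 1, 2 and 3 had Xist. Xist was thus absent from the null libraries and from WT replicate 2 and present in WT replicates 1 and 3. Sex and genotype therefore overlap in part, and the part of sex in the genotype comparison was not tested across genes. The share of cells with Xist also differed between regions within replicates 1 and 3. The part of sex in the regional comparison was not tested. Libraries shared 95 barcodes over all library pairs and 13 between cortical libraries, never between cells that both passed the rule. Scrublet marked 1 cortical NGFC as a doublet.

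Id2, Sema3c and Cacna2d1 complete the marker set and were not used by the rule. Id2 (ENSMUSG00000020644, chromosome 12, 25093799 to 25097140) encodes an inhibitor of basic helix-loop-helix factors, and had a UMI in 97.1% of the 175 WT NGFCs (median depth 5653 UMIs). It had one in 14.9% of 4554 other WT Gad cells (median 7137) and in 1.52% of 1580 cells with Mog and no Gad (median 3971.5), the background type here. Thinned to 1000 UMIs per cell, these shares were 65.5%, 3.69% and 0.732%.

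Sema3c (ENSMUSG00000028780, chromosome 5, 17574281 to 17730268), a secreted guidance protein, was found in 75.4% of WT NGFCs, 6.63% of other Gad cells and 0.190% of Mog cells, and in 19.5% of NGFCs after thinning. Cacna2d1 (ENSMUSG00000040118, chromosome 5, 15934691 to 16374511), an auxiliary subunit of voltage-gated calcium channels, was found in 83.4%, 2.92% and 13.5%. For Cacna2d1 the Mog cells exceeded the other Gad cells, also after thinning (3.80% against 0.904%; 31.0% in NGFCs). The rule requires Hapln1 and Lamp5 and sets no limit on the other 3 of the 5 markers. The study named all 5 from NGFC clusters of these same data, so they are no independent check of identity. All 5 had a UMI in 180 of the 248 cells, 4 in 53, 3 in 14 and 2 in 1.

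Per library, Hapln1 stood at 1977, 2163 and 2481 CPM in the NGFCs of cortical WT replicates 1, 2 and 3 and at 1232 and 2506 CPM in the null libraries. Lamp5 stood at 562, 546 and 588 CPM in WT and 602 and 573 CPM in null. Both were selected on, in every library. For Id2 the values were 1765, 1069 and 1061 CPM in WT and 1671 and 1032 CPM in null. The version 2 libraries, replicate 1 of each genotype, were the ones high in Id2.

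Among peptide and neurogliaform genes, Npy (neuropeptide Y) had a UMI in 98.3% of WT NGFCs, 66.4% of other Gad cells and 17.5% of Mog cells (94.8%, 43.8% and 5.19% thinned). Nos1, the neuronal nitric oxide synthase, was found in 65.7% of NGFCs, 683 of 4554 other Gad cells and 0.823% of Mog cells (19.0% and 7.57% of NGFCs and other Gad cells thinned). Cck, a peptide gene often used for other interneuron classes, was found in 85.1% of NGFCs, 35.5% of other Gad cells and 2.78% of Mog cells. Each of the 3 was found in NGFCs more often than in either of the other groups.

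Ndnf, a gene used to mark layer 1 neurogliaform cells, was found in 1.14% of WT NGFCs, 3.45% of other Gad cells and 0.253% of Mog cells. Kit, a receptor tyrosine kinase, was found in 26.9%, 8.12% and 2.34%. Sst, whose level the rule limited, had a UMI in 28.0% of NGFCs against 21.5% of Mog cells, and after thinning in 6.32% against 6.95%. Vip had a UMI in 0.571% of WT NGFCs, and the serotonin receptor gene Htr3a in 0 of 175, which allows a share of cells with a UMI of up to 1.71%.

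Genes typical of the MGE were found beside some of the caudal ganglionic eminence. Nkx2-1 (ENSMUSG00000001496, chromosome 12, 56531958 to 56536908) had a UMI in 38.9% of WT NGFCs, 3.71% of other Gad cells and 0.633% of Mog cells. Lhx6, the factor downstream of Nkx2-1, was found in 62.3%, 48.9% and 0.570%. Prox1, a factor typical of caudal cells, was found in 26.3% of NGFCs and 1.12% of other Gad cells but in 32.7% of Mog cells (4.60%, 0.339% and 10.8% thinned). Mog cells held Prox1 more often than NGFCs did and so give no measure of free RNA for this gene, for which the other Gad cells of the same libraries are the lower reference. Nr2f2, another caudal factor, was found in 1.71% of NGFCs and 19.1% of other Gad cells. Over all 248 cortical NGFCs, 122 had Nkx2-1, 70 had Prox1 and 33 had both.

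**Figure D2:**
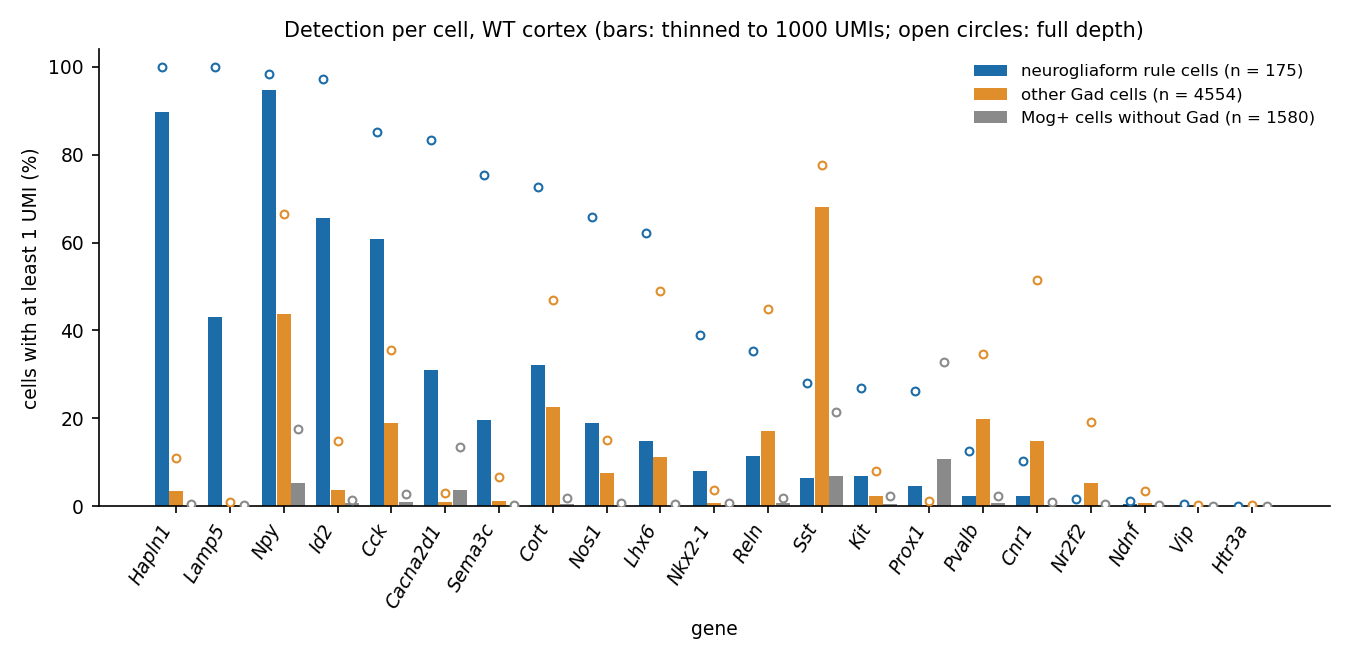
Share of WT cortical cells with at least 1 UMI (vertical axis, %) of each gene (horizontal axis) in NGFCs, other Gad cells and Mog cells without Gad. Bars are thinned to 1000 UMIs per cell and open circles are at full depth. Hapln1, Lamp5 and Sst were selected on, so their contrast is set by the rule. Id2, which was not, reaches 65.5% of thinned NGFCs and 3.69% of thinned other Gad cells.

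NGFCs were next described beside the other cortical Gad cells, with no test since the rule chose them from these cells. Of 4174 genes with at least 50 CPM in either group, 176 (4.22%) were at least 2-fold higher in NGFCs in every WT library and 172 (4.12%) at least 2-fold lower. Rule genes account for 4 and 1 of these, which leaves 172 and 171. Null replicate 2 had the same 2-fold difference for 156 of the higher genes and 156 of the lower ones. With 1 WT library left out at a time the counts were 189 to 197 higher and 189 to 199 lower.

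Outside the rule genes, Cryab, a small heat-shock chaperone gene (ENSMUSG00000032060, chromosome 9, 50751325 to 50756636), had the largest rise in mean log2(CPM + 10). It stood at 1000, 399.8 and 439.8 CPM in the NGFCs of WT replicates 1, 2 and 3 and at 14.4, 9.87 and 3.67 CPM in the other Gad cells. Cacna2d1 stood at 309, 572 and 490 CPM against 3.92, 11.1 and 5.93 CPM. Igfbp2, which encodes a binding protein of insulin-like growth factors, stood at 226, 146 and 355 CPM against 2.78, 2.55 and 1.36 CPM. For each of these genes every NGFC library lay far above every library of the other Gad cells.

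By mean over the WT libraries, the nuclear factor genes Nfib and Nfix stood at 771 and 472 CPM against 26.7 and 16.7 CPM. Pde11a, a cyclic nucleotide phosphodiesterase gene, stood at 228 against 4.25 CPM, and Rgs10, a regulator of G-protein signalling, at 1159 against 119 CPM. Id2, Sema3c, Necab2, Unc5c (a netrin receptor gene), Crispld1, Tnnt1, Adarb2 and Atp6ap1l were the other genes among the 15 with the largest rise outside the rule. Of these, Adarb2, often used for caudal cells, stood at 78.3, 131 and 97.7 CPM against 1.47, 2.55 and 0.653 CPM.

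Among the lower genes, Pcp4 (ENSMUSG00000090223, chromosome 16, 96467606 to 96525793), a calmodulin regulator gene, stood at 9.21, 3.74 and 7.24 CPM in NGFCs against 1076, 965 and 470 CPM in the other Gad cells. Satb1, a chromatin organiser needed by Sst and Pvalb interneurons, stood at 0, 3.74 and 29.0 CPM against 542, 516 and 555 CPM. Pvalb, a calcium-binding protein gene, stood at 23.0, 22.4 and 47.1 CPM against 504, 613 and 575 CPM. WT replicate 3 was the NGFC library with the most Satb1 and Pvalb, yet it too lay far under the other Gad cells. Rbp4, Crhbp, Synpr, Tac1, Lgals1, Calb1 and Calb2 complete the 10 with the largest fall outside the rule. These 7 had NGFC means of 0.603 to 31.5 CPM against 179 to 1277 CPM.

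**Figure D3:**
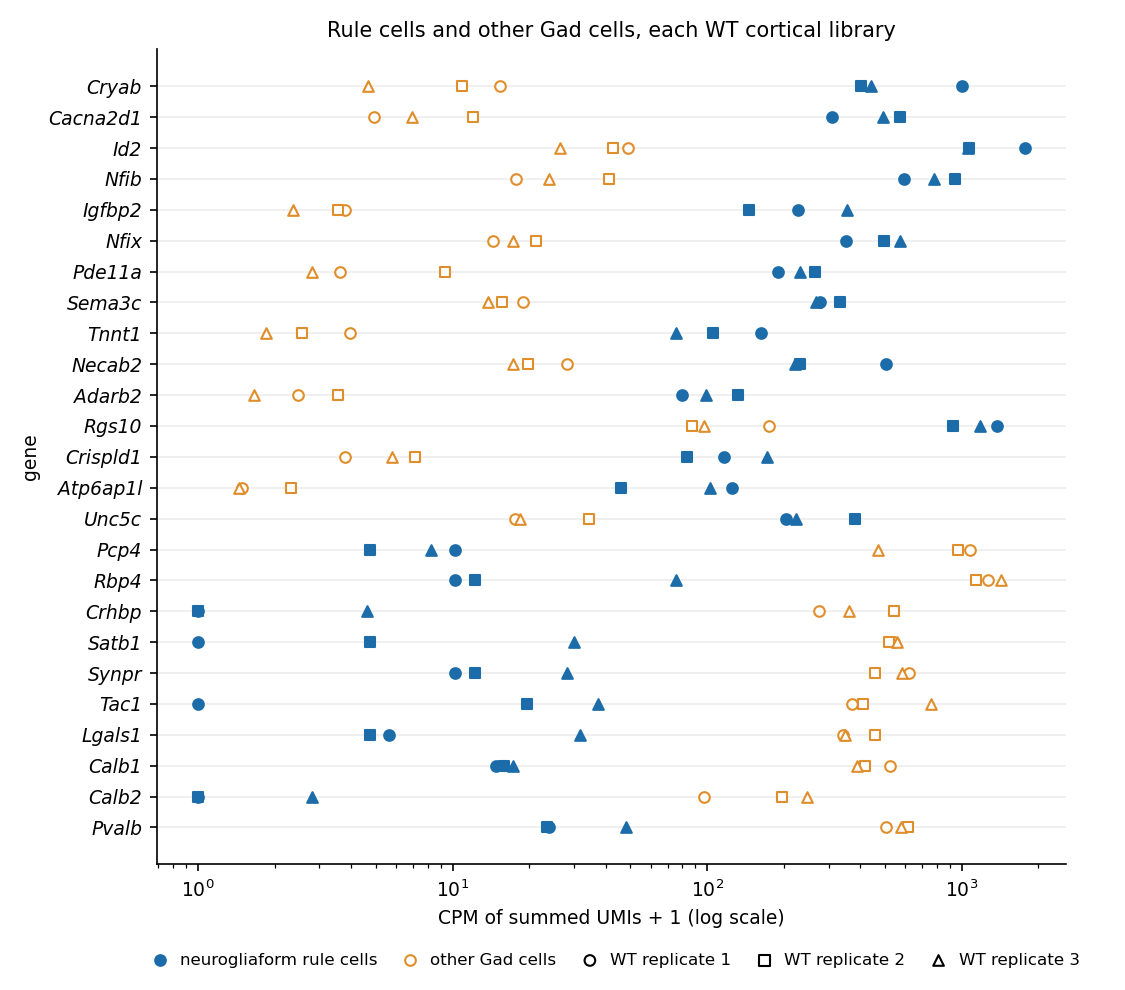
CPM of summed UMIs plus 1 (horizontal axis, log scale) for 25 genes in NGFCs (filled) and other Gad cells (open) of the 3 WT cortical libraries, by marker shape. The upper 15 genes were higher and the lower 10 lower in NGFCs in every WT library.

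Gene families were counted in the same way, with no test of any family. In each family below, counts are of genes with at least 50 CPM, beside 4.22% higher and 4.12% lower over all genes, and the median log2 difference over all 4169 named genes at that level was -0.01. Gad1 stood at 2470, 2361 and 1944 CPM in WT NGFCs, a mean of 2258 against 755 CPM in the other Gad cells, though the rule selected on Gad1 plus Gad2 in both groups.

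GABA receptor genes were 2 higher and 1 lower of 11 (median 0.27). Gabra5, a subunit of extrasynaptic receptors, stood at 101, 108 and 127 CPM against a mean of 13.8 CPM ± 1.46 (SD, n = 3), and Gabrg3 averaged 355 against 78.8 CPM. Gabrd, the subunit often tied to neurogliaform inhibition, stood at 55.3, 97.1 and 205 CPM against 88.1 ± 30.9, so the groups overlapped.

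NMDA receptor genes were 1 higher and 1 lower of 4 (median -0.20). Grin2a stood at 152, 291 and 252 CPM against 52.2 ± 6.87, whereas Grin3a stood at 36.9, 37.4 and 38.0 CPM against 309 ± 69.2. Grin2b differed by less than its spread, with a mean of 484 against 495 CPM. AMPA and kainate receptor genes were 0 higher and 5 lower of 12 (median -0.62), and potassium and HCN channel genes 0 higher and 3 lower of 16 (median -0.33). Kcnc2, a fast-spiking potassium channel gene, was among the lower ones at 64.5, 59.8 and 48.9 CPM against 358 ± 43.7.

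Transcription factor genes of the MGE and subpallium were 4 higher and 4 lower of 17 (median 0.42). Besides Id2 the higher ones were Bcl11b, Maf and Nkx2-1, which stood at 129, 89.7 and 61.5 CPM against 6.99 ± 1.45. Satb1, Sox6, Npas1 and Npas3 were the lower ones. Caudal-type genes were 2 higher (Prox1 and Adarb2) and 3 lower (Cnr1, Nr2f2 and Calb2) of 5, with a median of -2.23. Guidance genes were 4 higher and 0 lower of 9 (median 1.07), with the ephrin receptor gene Epha5 most abundant at 424, 1252 and 1126 CPM against 382 ± 186. Adhesion genes were 3 higher and 2 lower of 12 (median 0.24), led by Tenm1 at 424, 971 and 737 CPM against 116 ± 56.2. Peptide genes were 1 higher and 5 lower of 9 (median -2.80), the lower ones including Sst, which was selected on, and gap junction genes had none at 50 CPM, Gjd2 (connexin) being the most abundant at 18.4, 37.4 and 19.9 CPM. WT replicate 1, the version 2 library, had the least Epha5 and Tenm1 of the WT NGFCs.

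Extracellular matrix genes were 2 higher and 0 lower of 6 (median 0.15): Hapln1, which was selected on, and the proteoglycan gene Vcan at 55.3, 123 and 114 CPM against 3.75 ± 1.55. Npy, though found in nearly all NGFCs, had a lower summed level than in the other Gad cells, at 4824, 4338 and 5412 CPM against 8221 ± 2815, which is no 2-fold difference in every library. Within WT NGFCs the Npy level of single cells ran from 1409 CPM at the 10th percentile through a median of 4436 to 8230 CPM at the 90th, a coefficient of variation of 0.603.

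Reln (ENSMUSG00000042453, chromosome 5, 21884454 to 22344702) encodes reelin, a secreted matrix protein by which neurogliaform types are often divided. It had a UMI in 9 of 33, 23 of 63 and 30 of 79 NGFCs of WT replicates 1, 2 and 3, which is 27.3%, 36.5% and 38.0%. In null replicate 2 it had one in 35 of 70, and in null replicate 1 in 2 of 3. Thinned to 1000 UMIs the WT shares were 12.1%, 9.68% and 12.7% and that of null replicate 2 was 7.14%, and the order of the genotypes at full depth was not kept at equal depth. Pooled, Reln had a UMI in 35.4% of WT NGFCs, 44.99% of other Gad cells and 1.77% of Mog cells.

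NGFCs with and without a Reln UMI were set side by side in each library, as a description. Lamp5 stood at 398, 495 and 469 CPM in cells with Reln and at 622, 576 and 666 CPM in cells without it, in WT replicates 1, 2 and 3, and at 508 against 649 CPM in null replicate 2. Hapln1 stood at 2094, 2396 and 2830 CPM with Reln and at 1934, 2022 and 2255 CPM without it, and at 2641 against 2348 CPM in null replicate 2. Lamp5 was lower and Hapln1 higher in Reln cells in each of the 4 libraries. Both genes were selected on, and median depth differed too, at 5893, 4226, 7470.5 and 13388 UMIs with Reln and 6433, 3741.5, 6313 and 11586 without it, in that library order. The part of depth and of the rule in these differences was not tested. Lhx6 was also higher in Reln cells in all 4, with WT means of 217 against 158 CPM. Npy (4148 against 5268 CPM) and Kit (38.4 against 77.6 CPM) were lower in all 4. Reln and Nos1 were found together in 65 cells, Reln alone in 34 and Nos1 alone in 114.

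Cortical and hippocampal NGFCs of WT mice, chosen by the same rule, were compared to ask how the selected cells differ between regions. The rule takes cells with and without Reln. The study proposes that its Reln-negative cluster may hold ivy cells, which it counts among NGFCs. The mix of such types was not compared between regions, and its part in the differences below was not tested. Called genes had an adjusted p below 0.01 in edgeR and a change of at least 0.1 on the natural-log scale. Of 8518 genes tested, 1 was called (0.0117%), with 308 at an unadjusted p below 0.05, and DESeq2 called 3 with 243. With the replicate number as a block, edgeR called 10 (0.117%), of which 5 were higher in the hippocampus (Nrp2, St6galnac5, Rxfp3, Cnr1 and Fxyd6) and 5 lower (Kit, Cartpt, Nrgn and Hbb-bs among them).

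The gene called in the unblocked fit was Nrp2 (ENSMUSG00000025969, chromosome 1, 62703285 to 62818695), which encodes a receptor for secreted class 3 semaphorins. It stood at 9.21, 11.2 and 16.3 CPM in the NGFCs of cortical WT replicates 1, 2 and 3 and at 121, 96.2 and 98.4 CPM in the hippocampal ones. The regions did not overlap, and Nrp2 was higher in 3 of 3 hippocampal libraries. Nrp2 rose by 3.01 log2 units (SE 0.38, edgeR adjusted p 0.00953; DESeq2 adjusted p 0.000119; blocked 2.98, adjusted p 0.00175). It had a UMI in 7.43% of cortical WT NGFCs, 4.02% of other Gad cells and 0.506% of Mog cells. In hippocampal WT replicates 1, 2 and 3 the NGFC shares were 36.7%, 24.4% and 50.2%, at median depths of 4693, 2577.5 and 9454 UMIs. These shares are at full depth, and no hippocampal background share is given here, so they are not compared between regions.

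The call for Nrp2 sat close to the threshold, and it held without 1 library and missed without each of the others, while the size stayed between 2.89 and 3.37. The adjusted p was 0.0676, 0.171 and 0.127 without cortical WT replicates 1, 2 and 3, and 0.0106 without cortical null replicate 2. Without hippocampal WT replicates 1 and 3 it was 0.0227 and 0.0453, and without null replicates 1 and 2 it was 0.0311 and 0.0323. Over all alternatives it ran from 2.90e-07 to 0.184. Without hippocampal WT replicate 2 Nrp2 remained called (adjusted p 0.00974) and Rxfp3 joined it at the same adjusted p.

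St6galnac5 (ENSMUSG00000039037, chromosome 3, 152817081 to 152982246), a sialyltransferase gene, stood at 13.8, 14.9 and 21.7 CPM in cortical and at 130, 74.0 and 96.5 CPM in hippocampal WT NGFCs (log2 change 2.51, SE 0.40, edgeR adjusted p 0.0680). Cnr1 (ENSMUSG00000044288, chromosome 4, 33924593 to 33948831), the cannabinoid receptor gene, stood at 36.9, 29.9 and 16.3 CPM against 256, 118 and 102 CPM (2.63, SE 0.46, adjusted p 0.0692). Neither passed in the unblocked edgeR fit, while both passed with the block (0.00416 and 0.00262) and in DESeq2 (0.00258 and 0.000918). In both genes the hippocampal libraries all lay above the cortical ones.

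Rxfp3, a relaxin-family receptor gene, was near 0 in the cortex, with 0, 3.74 and 1.81 CPM, and stood at 83.0, 18.5 and 49.8 CPM in the hippocampus (edgeR adjusted p 0.0690, blocked 0.00416). Kit (ENSMUSG00000005672, chromosome 5, 75574916 to 75656722) stood at 41.5, 63.5 and 86.9 CPM in cortical and at 2.24, 3.70 and 14.2 CPM in hippocampal WT NGFCs (log2 change -2.76, SE 0.56, adjusted p 0.242, blocked -2.98 with 0.00507). Without hippocampal WT replicate 3, which held the most Kit of these 3, the change was -4.49, and without each other library it was between -2.94 and -2.47. For both genes the cortical and hippocampal WT libraries did not overlap.

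The other genes of smallest p were Lmo7 (-2.26, adjusted p 0.272) and Arap2 (-1.71, adjusted p 0.302), values only. The blocked call of Hbb-bs, a haemoglobin gene, rested on cortical WT replicate 3, with 134 CPM there and 0 in the other cortical WT libraries. Nrgn, a glutamatergic neuron marker, stood at 124, 213 and 521 CPM in cortical and at 13.5, 14.8 and 115 CPM in hippocampal NGFCs, while the other 6 glutamatergic markers listed, Slc17a7 and Slc17a6 included, were at 0 in cortical WT NGFCs. Npy, at 1284, 1658 and 4100 CPM in the hippocampus, was below every cortical library but did not pass (unadjusted p 0.0111).

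Markers of another cell type were present in these sums. Summed over 10 oligodendrocyte-lineage markers, cortical WT NGFCs held 249, 161 and 429 CPM and hippocampal ones 718, 2328 and 561 CPM, with Mog at 0 by the rule. Of the 6 tested, 5 had an unadjusted p below 0.05, all higher in the hippocampus, with a median log2 change of 2.09 against 0.01 over all genes, and 0 were called. Their part in the regional differences was not tested. The neurogliaform markers, of which Hapln1 and Lamp5 were selected on in both regions, were 0 called of 5 (median -0.02) and the guidance genes 1 called of 16 (median 0.32), which was Nrp2.

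**Figure D4:**
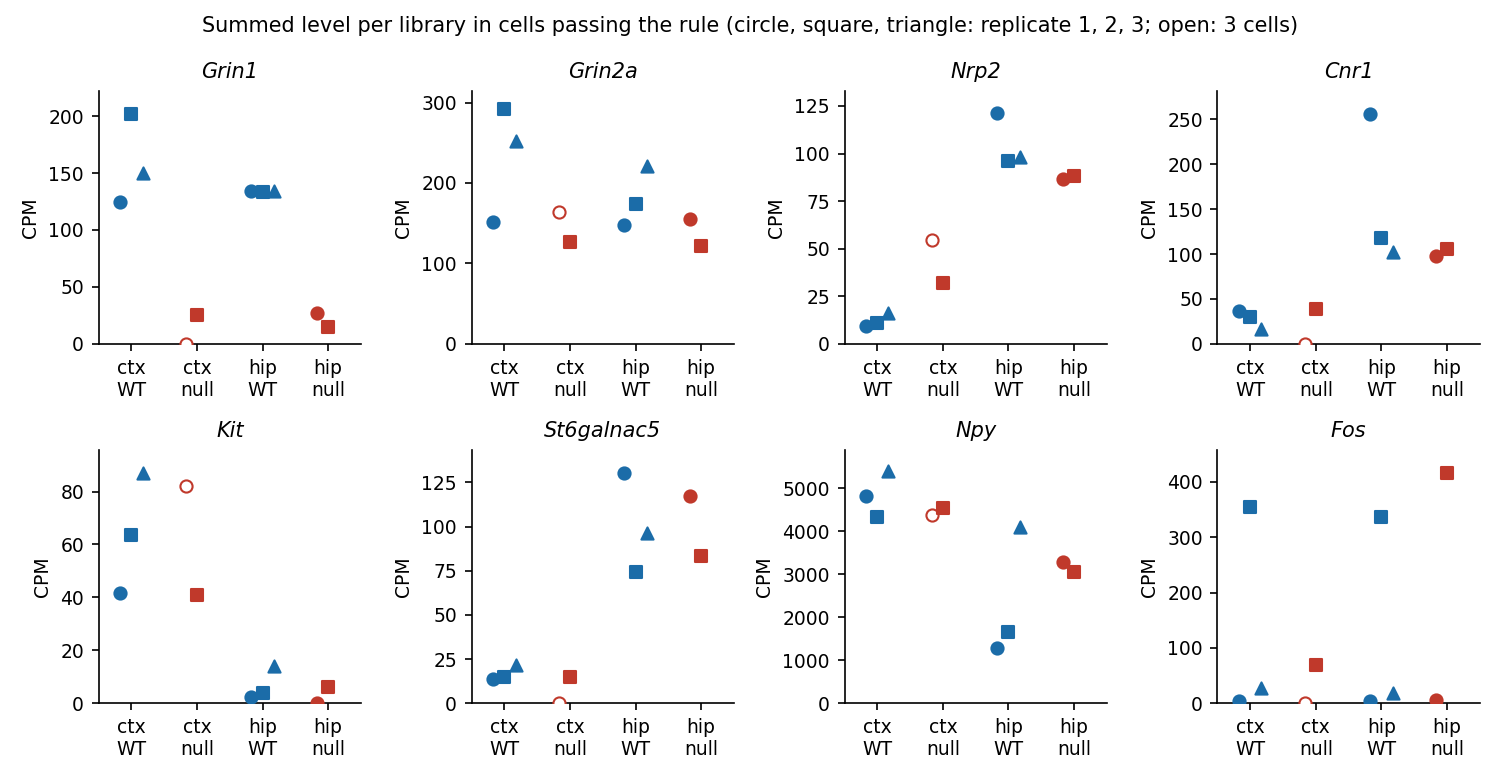
CPM of summed UMIs (vertical axes) of 8 genes in cells passing the rule, by region and genotype (ctx, cortex; hip, hippocampus), 1 point per library, WT in blue and null in red. The open point is cortical null replicate 1, with 3 cells. Nrp2 and Cnr1 lie higher in hippocampal WT than cortical WT libraries, Grin1 lies between 124 and 202 CPM in cortical WT and at 0 and 25.02 CPM in cortical null libraries, and Fos is high in replicate 2 libraries.

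Cortical null NGFCs were compared with WT ones to ask what loss of Grin1 does to the class. Null replicate 1, with 3 NGFCs, was left out of the fit, so the null side is 1 library of 70 cells whose spread is assumed to be that of the other groups. edgeR called 0 of 8518 genes (0.0%), with 167 at an unadjusted p below 0.05, and DESeq2 called 0 with 102. With the replicate block edgeR called 0, with 623.

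Grin1 itself (ENSMUSG00000026959, chromosome 2, 25291181 to 25319187) stood at 124, 202 and 150 CPM in the NGFCs of WT replicates 1, 2 and 3, at 0 of 36517 UMIs in null replicate 1 and at 25.02 CPM (22 UMIs) in null replicate 2. The null libraries both lay below the lowest WT library. The log2 change was -2.67 (SE 0.53, edgeR unadjusted p 0.000158, adjusted p 1, lower than 3 of 3 WT libraries), and DESeq2 gave -2.70 (adjusted p 0.0177), so it did not pass. Over all alternatives the log2 change ran from -2.85 to -2.51 and the adjusted p from 0.0177 to 1. Between the replicate 2 libraries, neither of which held Xist, the difference was -2.96 in log2(CPM + 1). In the hippocampus Grin1 stood at 135, 133 and 134 CPM in WT and at 26.9 and 14.9 CPM in null NGFCs.

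A Grin1 UMI was found in 57.7% of WT NGFCs (median depth 5653), in 21 of 70 NGFCs of null replicate 2 (median 12260.5) and in 2.41% of WT Mog cells. Thinned to 1000 UMIs, 14.9% of WT NGFCs and 5.71% of those of null replicate 2 had one, beside 0.512% of WT Mog cells and 0.105% of Mog cells of null replicate 2. Reads were counted at the 3′ end, and the exons removed by Cre are not given in the sources used here, so whether these counts report the deletion is not known.

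No NMDA receptor gene passed the test. Grin2a stood at 126 CPM and Grin2b at 263 CPM in null replicate 2, both under their lowest WT values of 152 and 304 CPM, with log2 changes of -0.89 and -0.89 (unadjusted p 0.0744 and 0.0980). In null replicate 1 they stood at 164 and 329 CPM (6 and 12 UMIs), both above those lowest WT values. The 5 NMDA receptor genes tested had a median log2 change of -0.89 against -0.01 over all genes. Oligodendrocyte-lineage markers were lower too: the 6 tested had a median of -1.47, with 0 above 0. Summed over 10 such markers, cortical NGFCs held 249, 161 and 429 CPM in WT and 27.4 and 115 CPM in the null libraries. Their part in the genotype differences was not tested. Taken from the study's account of null NGFCs, 14 genes other than Grin1 had a median log2 change of -0.04, with 6 above 0. That median was near the -0.01 over all genes. The study gave rises for some of these genes, such as Hcrtr2 and Tcap, and falls for others, such as Rgs12, Sema5a and Bcl11b. It named Wnt5a for hippocampal NGFCs, and its calls came from a test on single cells. A signed median over such a mixed list therefore cannot decide whether the study's changes are present here. The neurogliaform markers had a median of 0.13 with 0 called, Hapln1 and Lamp5 having been selected on in both genotypes.

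The remaining genes of smallest p are given as values only. Nrp2 was among the 167, at 54.8 CPM (2 UMIs) in null replicate 1 and 31.8 CPM (28 UMIs) in null replicate 2, both above its WT values (log2 change 1.25, edgeR unadjusted p 0.0255, not called). Add2, an adductin gene, stood at 36.9, 56.0 and 38.0 CPM in WT and 5.69 CPM in null replicate 2, and Syne1, a nuclear envelope gene, at 41.5, 59.8 and 56.1 against 12.5 CPM. Grhpr stood at 13.8, 3.74 and 3.62 CPM in WT and 35.3 CPM in null replicate 2, Nudt22 at 4.61, 0 and 7.24 against 31.8 CPM, and 1810011O10Rik at 0, 0 and 0 against 22.7 CPM. The 3 cells of null replicate 1 gave 27.4, 137 and 27.4 CPM of Grhpr, Nudt22 and 1810011O10Rik (1, 5 and 1 UMIs), above every WT library, and 27.4 CPM of Add2 (1 UMI), below every one, but 137 CPM of Syne1 (5 UMIs), above every one. All 5 had an adjusted p of 1. Malat1, a nuclear RNA mentioned after its values were seen, stood at 37975, 41367 and 32913 CPM in WT and at 70050 and 11009 CPM in the null libraries, so the null libraries stood apart from each other on either side.

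Whether the null change differed between regions was tested as an interaction. edgeR called 0 of 8518 genes (0.0%), with 49 at an unadjusted p below 0.05, and DESeq2 called 0 with 21. With the replicate block edgeR called 0, with 95. The genes of smallest p, as values only, were Hbb-bs, Crh and Tac1 on the lower side and Ust, Gng4 and Slc25a1 on the higher, all with an edgeR adjusted p of 1. Tac1 stood at 0, 18.7 and 36.2 CPM in cortical WT and at 54.8 (2 UMIs) and 6.82 CPM (6 UMIs) in cortical null replicates 1 and 2, against 40.4, 22.2 and 47.5 CPM in hippocampal WT and 171 and 75.5 CPM in hippocampal null NGFCs. Gng4 was at 0 in all 3 cortical WT libraries and in null replicate 1, and at 5.69 CPM in null replicate 2.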

How the data were processed

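The authors counted 10x reads with Cell Ranger (2.1.1 in the labels, 3.0.2 in the matrix header) on mm10, with gene ends extended by up to 4 kb, and deposited whole UMI counts for each gene and cell, pooled by region and genotype. Libraries were told apart by barcode suffix, and replicate numbers came from the number of barcodes per suffix. Members and gene lists were chosen with earlier results of these data known. UMIs of the selected cells were summed per library. Sums of at least 10 cells were tested with edgeR 4.0.16 (quasi-likelihood, TMM, filterByExpr, 1 fit for all 4 groups, Benjamini-Hochberg over all genes) and DESeq2 1.42.0 in R 4.3.3. Which animals gave which library is not given in the sources used here, so p-values measure the spread between libraries. Residuals of WT libraries with the same number in both regions correlated at 0.453, 0.396 and 0.196 over 8518 genes, so the number was also fitted as a block. Shares were tested by exact permutation (scipy 1.17.1), two-sided. Doublets were marked by Scrublet in scanpy 1.11.5 (expected rate 0.06). Intervals and limits of 0 (3 counts) cover counting error only. Named genes were Grin1, the rule genes and markers, up to 4 of highest mean per list, called genes or the 3 of smallest p in each direction, and, against other Gad cells, the 15 largest rises and 10 largest falls in mean log2(CPM + 10). Genes named outside that rule were chosen after their values were seen. Coordinates are from GENCODE vM21.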

Additional observations from a re-analysis of the deposited data

How the results depend on the processing

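The count of genes called between cortical and hippocampal WT NGFCs, 1 in the chosen setting, depended on the processing. DESeq2 called 3, the fit with the replicate block 10, and the fit with no filter on low counts 36. It was 0 with only the groups compared in the fit, 0 under the stricter rule (at least 5 Hapln1 and 2 Lamp5 UMIs), 0 under the looser rule (at least 1 Hapln1 UMI), 0 with both WT replicate 2 libraries left out and 0 with version 3 libraries only, the last pair being chosen after seeing the data, as was leaving out WT libraries in the description against other Gad cells. It stayed at 1, the same gene, under an adjusted p of 0.05, library-size scaling, sums of at least 20 cells or of at least 1 cell, the stricter cell filter and the removal of doublets. Leaving out 1 library at a time gave 0 to 2. The fit of only the groups compared tested 5600 genes on fewer libraries; the cause of the other changes was not tested.

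The genotype and interaction counts were 0 in every alternative that could be fitted except with no filter on low counts, where 1 gene was called in each, Xist for genotype and Hbb-bs for the interaction. With 1 library left out both counts ranged from 0 to 0. Without cortical null replicate 2 neither could be fitted, since no null cortical sum was left. The replicate block changed no call other than those of the regional comparison.

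The null minus WT difference in the share of NGFCs was 0.0395 to 3.46 points in the alternatives that left no single library out (p 0.333 to 0.9) and -1.47 to 3.22 points with 1 library left out. It reversed without cortical null replicate 2, at -1.47 points. The regional difference was 11.8 to 20.3 points in the former and 9.99 to 25.03 points in the latter, and the stricter rule gave 12.5 points (exact permutation p = 0.4) because hippocampal WT replicate 2 then held 1.28%.

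Among the genes named in a comparison, 486 values kept their direction and their side of the threshold, 21 passed where they had not, 13 no longer passed, all of Nrp2, and 0 reversed.

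Depth limits these results. Cortical NGFCs numbered 248, and the cortical null side rests on 1 library in each gene test except that with sums of at least 1 cell, which adds the library of 3 cells. Null NGFCs were deeper than WT ones, and chemistry differed between replicates. Sex composition differed between libraries. Shares per cell count recovered cells after sorting, not cells in tissue. Selection on Hapln1 and Lamp5 passes over cells with few UMIs.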
